A study of Homo sapiens with 12 samples.

Results

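NR3C1, the gene of the glucocorticoid receptor (GR), was followed together with 6 genes of its chaperone machinery and 3 genes of its coregulators in MDA-MB-231 cells. The chaperone genes were HSP90AA1, HSP90AB1, HSPA8, STIP1, PTGES3 and FKBP4, and the coregulator genes were NCOA1, NCOA2 and NCOR1. These 10 genes were chosen by symbol out of 19907 symbols, and all 10 were among the 18579 genes that had enough reads to be tested. MDA-MB-231 is an established human triple-negative breast cancer (TNBC) line. The wt-GR cells were a non-targeted clone recovered from the CRISPR-treated population, and S134A-GR cells were clone #1 of a knock-in in which both alleles carry alanine in place of Ser134 and a silent change at the guide site. Each cell line is therefore 1 clone, and differences between the lines cannot be told apart from differences between 2 clones. After 18 h of starvation with 1% DCC, a charcoal-stripped serum, cells of each line were given TGFβ1 at 10 ng/mL or vehicle (Veh) for 6 h, with no GR ligand added. The 4 groups (wt-GR Veh, wt-GR TGFβ1, S134A-GR Veh and S134A-GR TGFβ1) held 3 libraries each, 12 in all. The labels do not say whether replicates were separate cultures, so p-values measure only the spread between these samples, which may be technical.

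In the absence of hormone, GR is a client of a chaperone cycle. HSP70 (the constitutive form is HSPA8) and HSP40 cochaperones bind the newly made receptor, HOP (STIP1) bridges HSP70 to HSP90, and p23 (PTGES3) stabilizes the closed HSP90 complex in which the receptor can bind hormone. FKBP52 (FKBP4) then joins HSP90 in place of FKBP51 (FKBP5) and links the complex to dynein for transport to the nucleus. On DNA, GR recruits p160 coactivators (NCOA1 and NCOA2), which bring in acetyltransferases, or corepressors such as NCOR1, a scaffold for the deacetylase HDAC3.

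NR3C1 (ENSG00000113580.15) lies on the minus strand of chromosome 5, from 143277931 to 143435512 in hg38, and the codon of Ser134 in its canonical coding sequence is in exon 2 at chr5:143400438-143400440. The reference sequence around the codon that was edited in the S134A-GR line is shown on the coding strand for chr5:143400414-143400464, with the serine codon in capitals.
NR3C1, codon of Ser134: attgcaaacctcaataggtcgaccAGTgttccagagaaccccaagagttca
A gene count does not show which base a read carried at this codon, so the knock-in could not be checked from these values.

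The values are normalized counts, the reads of a gene divided by the authors' size factor of the library. Totals ranged from 56362036 to 129832227 reads per library, and 3 reads corresponded to 2.15 to 4.89 normalized counts, far under every value of the 10 genes. Every total was above the average number of reads per sample that the paper states, and the reason was not tested. VIM (419832 to 533198 normalized counts) and the other 5 markers of mesenchymal TNBC cells were high in every library, with a summed level of 785267 to 999569. ESR1 (0 to 7.32) and CDH1 (1.05 to 12.5) were near 0, while ERBB2, GATA3, FOXA1 and EPCAM were detected, so that the summed luminal markers ranged from 9238 to 12385. Of the leukocyte and endothelial markers PTPRC was near 0 (0 to 9.80), PECAM1 ranged from 746 to 1454 and CDH5 from 13.2 to 234. Between the lines under vehicle, the log2 fold change of S134A-GR was −1.44 for EPCAM but 0.43 for GATA3, 0.34 for FOXA1 and 0.24 for ERBB2, and the luminal sum was higher (12135 to 12385 against 10894 to 10998 in wt-GR). It was −3.28 for CDH5, with a leukocyte and endothelial sum of 1098 to 1205 against 1471 to 1622, and −0.70 for CAV1, with a mesenchymal sum of 785267 to 793790 against 821210 to 865442. The part of these markers in the results below was not tested. Among the wt-GR Veh libraries, long transcripts had the most counts in replicate 1 and the fewest in replicate 3. The slope of a library's log2 deviation from its group mean on log2 transcript length, over 12250 genes, was 0.053, 0.0093 and −0.062 in replicates 1, 2 and 3, while the other 9 libraries lay between −0.026 and 0.030.

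The genes differ widely in abundance. Per kilobase of exon, which allows levels to be compared between genes, HSP90AB1 stood highest in wt-GR Veh cells at 77514 normalized counts per kilobase. HSP90AA1 followed at 46291 and HSPA8, the constitutive HSP70, at 43890. The cochaperones formed a middle tier, with PTGES3 at 8241, STIP1 at 7562 and FKBP4 at 2676 normalized counts per kilobase. NR3C1 (1285) and NCOR1 (1123) came next, and their libraries overlapped, so the order of this pair is open. NCOA1 (319) and NCOA2 (237) were lowest. In S134A-GR Veh cells the order was the same, and there NCOA1 (219) and NCOA2 (214) overlapped as well. The order depends on the length used. Per kilobase of the longest transcript, HSPA8 (92291) stood above HSP90AB1 (86385) and HSP90AA1 (67221) in wt-GR Veh cells, and STIP1 (12685) stood above PTGES3 (9531). By that length, NCOR1 (1342) stood above NR3C1 (1210) in S134A-GR Veh cells, and their libraries did not overlap.

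**Figure D1:**
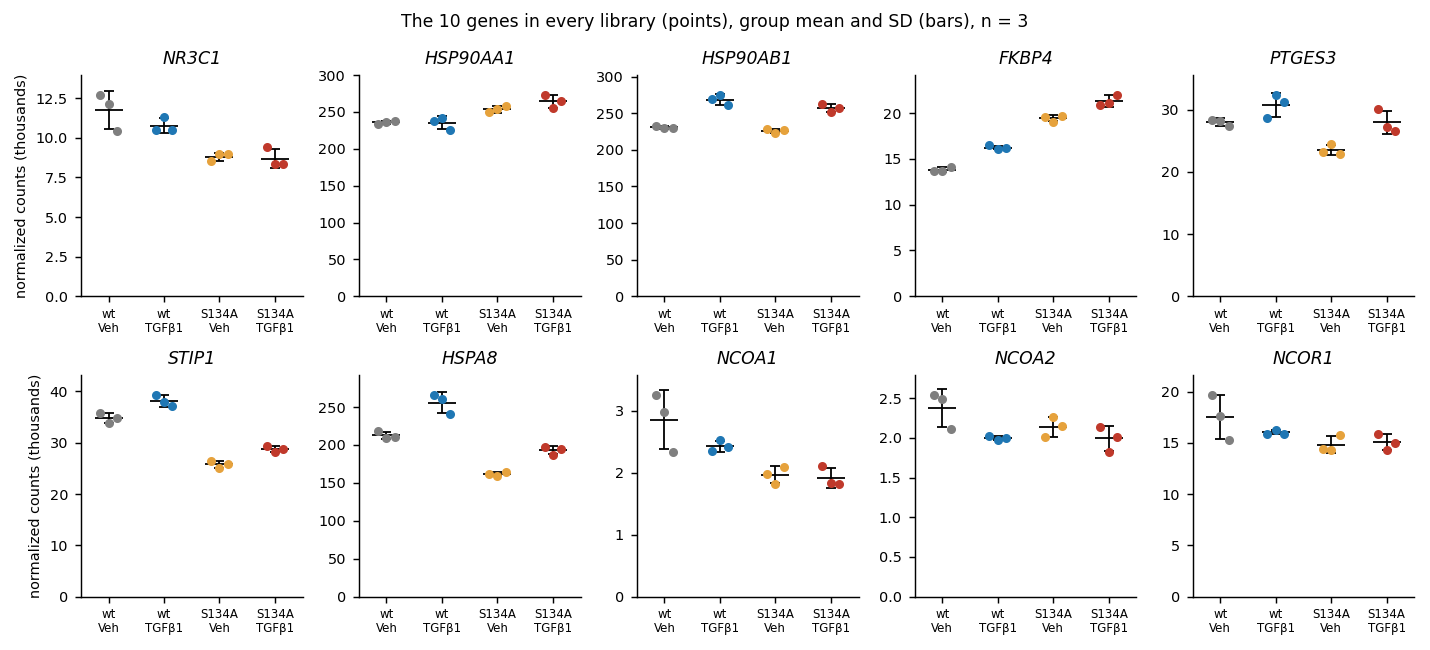
Normalized counts (vertical axis from 0, in units of 1000) of the 10 genes in each of the 12 libraries, by group. Points are libraries and bars are the group mean and SD (n = 3); FKBP4 climbs over the 4 groups without overlap, HSPA8 and STIP1 fall with the S134A-GR line and rise with TGFβ1, and the wt-GR Veh libraries of NR3C1, NCOA1, NCOA2 and NCOR1 are spread widely.

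The first comparison asked whether the lines carry mRNA of the receptor and its machinery at the same level before any stimulus. Protein was not measured in these libraries, and the paper reports equal total GR protein in all its lines by western blot. Under vehicle, S134A-GR cells held less mRNA of NR3C1, of HSPA8, STIP1 and PTGES3, and of the coregulators NCOA1 and NCOR1, and more of FKBP4 and, by a small margin, HSP90AA1. Thus 8 of 10 genes differed (limma, FDR under 0.05), 2 higher and 6 lower, on a background in which 51.5% of all tested genes differed, 25.0% higher and 26.5% lower. Shares of all tested genes, here and below, include genes with few reads and are not matched for abundance. With at least 10 normalized counts in 3 libraries required, 9459 of 15874 genes differed. None of the 10 reached an absolute log2 fold change of 1, as 9.51% of all tested genes did. HSP90AB1 and NCOA2 did not pass.

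NR3C1 read 12729, 12139 and 10444 normalized counts in the 3 wt-GR Veh libraries. It read 8516, 8971 and 8959 in the 3 S134A-GR Veh libraries. All S134A-GR libraries were below all wt-GR libraries, and the log2 fold change was −0.41 ± 0.066 (SE; limma adjusted p = 0.00012), or 0.751 times the wt-GR level. The spread within wt-GR followed the length trend of those libraries. With that trend removed the log2 fold change was −0.33 (adjusted p = 9.54e-06). NR3C1 thus remained lower in the mutant line, by less.

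HSPA8 read 218365, 209776 and 210328 normalized counts in wt-GR Veh cells against 161158, 158978 and 164245 in S134A-GR Veh cells. The groups were far apart relative to their spread, with a log2 fold change of −0.40 ± 0.041 (limma adjusted p = 1.96e-06). STIP1 read 35834, 33764 and 34784 in wt-GR Veh cells against 26516, 25089 and 25828 in S134A-GR Veh cells, a log2 fold change of −0.43 ± 0.035 (limma adjusted p = 1.85e-07). HSPA8 and STIP1, the HSP70 and the adaptor that hands its client on, were therefore each at about the same fraction of the wt-GR level (0.759 and 0.742 times). PTGES3 read 28418, 28264 and 27352 in wt-GR Veh cells and 23225, 24427 and 22844 in S134A-GR Veh cells, again without overlap, at a log2 fold change of −0.25 ± 0.052 (limma adjusted p = 0.00091).

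FKBP4 moved the other way. It read 13703, 13621 and 14123 normalized counts in wt-GR Veh cells and 19616, 19050 and 19704 in S134A-GR Veh cells. This was the largest rise of the 10 genes, 1.41-fold, with a log2 fold change of 0.49 ± 0.032 (limma adjusted p = 1.81e-08). FKBP5, whose product competes with FKBP52 for HSP90 and which is a known GR target, did not pass the test: it averaged 3914 ± 170 (SD, n = 3) in wt-GR Veh cells and 3753 ± 18.8 in S134A-GR Veh cells, a log2 fold change of −0.060 (95% interval −0.15 to 0.036, limma adjusted p = 0.287).

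The HSP90 paralogs differed little between the lines. HSP90AA1, the stress-inducible form, read 233360, 236989 and 237489 in wt-GR Veh cells and 249286, 253666 and 258471 in S134A-GR Veh cells. The libraries did not overlap, but the log2 fold change was only 0.11 ± 0.038 (limma adjusted p = 0.032), and the call was lost under 6 of 23 alternative settings, including a pseudocount of 16. HSP90AB1, the constitutive form, read 233328, 230158 and 229493 against 228198, 223033 and 227641, a log2 fold change of −0.030 with a 95% interval of −0.10 to 0.043 (limma adjusted p = 0.494).

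Among the coregulators, NCOA1 read 3259, 2990 and 2335 normalized counts in wt-GR Veh cells against 1974, 1826 and 2099 in S134A-GR Veh cells. It had the largest fall of the 10 genes, a log2 fold change of −0.53 ± 0.10 (limma adjusted p = 0.00045), and −0.44 with the length trend removed. NCOR1 read 19672, 17624 and 15311 against 14407, 14284 and 15753. One S134A-GR library lay above the lowest wt-GR library, and the log2 fold change of −0.24 ± 0.071 (limma adjusted p = 0.012) lost its call without wt-GR Veh replicate 1 (−0.15, adjusted p = 0.053). NCOR1 shares 248 exon bases with TTC19 on the opposite strand, and the strand setting of the counting is not given in the sources used here. NCOA2 read 2540, 2484 and 2106 against 2010, 2258 and 2151, which overlapped, with a log2 fold change of −0.15 (95% interval −0.31 to 0.011, limma adjusted p = 0.111). Without wt-GR Veh replicate 3 it passed (−0.23, adjusted p = 0.0092).

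The same contrast under TGFβ1 used the other 6 libraries. There 7 of 10 genes differed, 2 higher and 5 lower, where 48.8% of all tested genes did, 23.1% higher and 25.7% lower. None of the 10 reached an absolute log2 fold change of 1, as 8.46% of all tested genes did. FKBP4 (log2 fold change 0.39 ± 0.032) and HSP90AA1 (0.17 ± 0.038) were again higher in S134A-GR cells. NR3C1 (−0.31 ± 0.066), HSPA8 (−0.41 ± 0.041), STIP1 (−0.40 ± 0.035), NCOA1 (−0.34 ± 0.10) and PTGES3 (−0.14 ± 0.052) were again lower. NR3C1 read 10486, 11326 and 10513 normalized counts in wt-GR TGFβ1 cells against 9398, 8336 and 8341 in S134A-GR TGFβ1 cells, with no overlap. The wt-GR Veh libraries do not enter this difference in NR3C1 (limma adjusted p = 0.0013) except through the shared estimate of spread, and with the length trend removed it was −0.29. The call of PTGES3 (adjusted p = 0.041) was lost under 8 of 23 alternative settings, and its libraries overlapped. HSP90AB1 (−0.064, adjusted p = 0.137), NCOA2 (−0.0059, adjusted p = 0.958) and NCOR1 (−0.090, adjusted p = 0.325) did not pass the limma test.

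**Figure D2:**
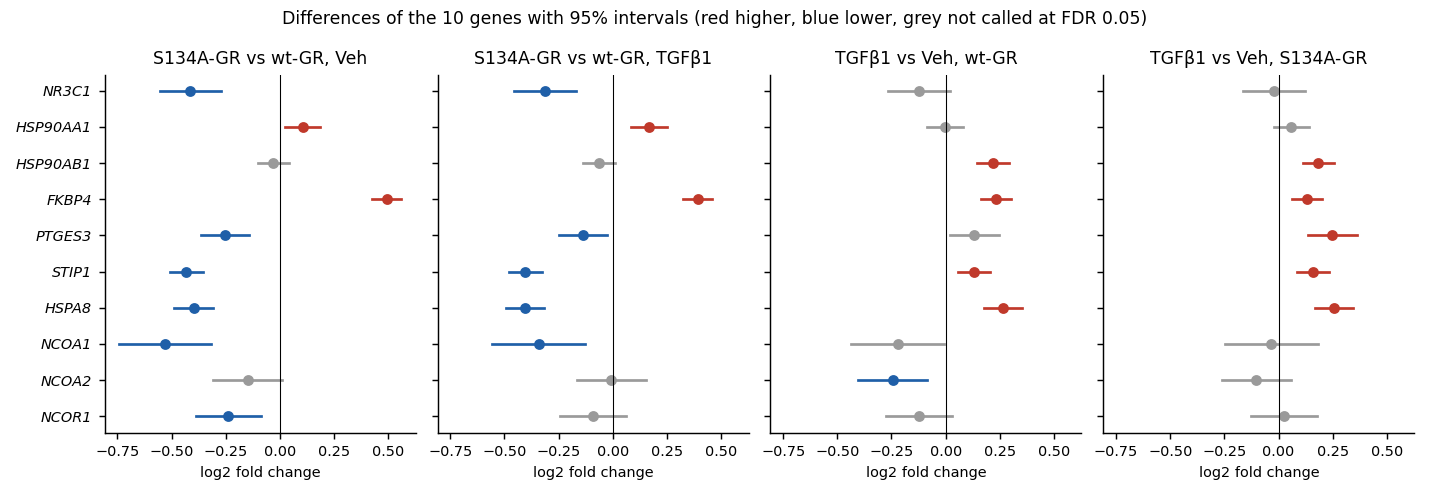
Log2 fold changes (horizontal axis) of the 10 genes in the 4 comparisons, with 95% intervals from limma. Red marks a call as higher and blue as lower at an FDR of 0.05; the left pair of panels, the contrast of the lines, shows FKBP4 at 0.49 and 0.39 against a group of lower genes, and the right pair, the TGFβ1 responses, shows rises of up to 0.26 among chaperone genes.

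The second question was whether TGFβ1 changes the mRNA levels of this machinery. HSPA8, HSP90AB1, FKBP4 and STIP1 rose with TGFβ1 in both lines. PTGES3 rose in S134A-GR cells and did not pass the test in wt-GR cells, a difference in response that did not itself pass, and HSP90AA1 and NR3C1 passed in neither. In wt-GR cells 5 of 10 genes changed, 4 higher (HSP90AB1, FKBP4, STIP1 and HSPA8) and 1 lower (NCOA2), where 21.0% of all tested genes changed, 11.2% higher and 9.82% lower. In S134A-GR cells 5 of 10 rose (the same 4 and PTGES3) and 0 fell, where 18.7% of all tested genes changed, 10.0% higher and 8.69% lower. None of the 10 reached an absolute log2 fold change of 1, as 2.29% of all tested genes did in wt-GR and 1.66% in S134A-GR cells. The comparisons of lines and of treatments share libraries, since each vehicle group enters both.

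HSPA8 rose to 265990, 261095 and 240360 normalized counts in wt-GR TGFβ1 cells, above all wt-GR Veh libraries, and to 196961, 186973 and 194794 in S134A-GR TGFβ1 cells. Its log2 fold change was 0.26 ± 0.041 in each line (limma adjusted p = 0.00034 and 0.0005). All S134A-GR TGFβ1 libraries were still below all wt-GR Veh libraries, a difference that was not tested. HSP90AB1 read 269785, 275435 and 261099 in wt-GR TGFβ1 cells and 262878, 251477 and 256957 in S134A-GR TGFβ1 cells, above every vehicle library. Its log2 fold changes were 0.22 ± 0.034 in wt-GR and 0.18 ± 0.034 in S134A-GR cells (limma adjusted p = 0.00032 and 0.0014).

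HSP90AA1 behaved unlike its paralog in level. It read 238064, 242429 and 225837 in wt-GR TGFβ1 cells, around the vehicle values, with a log2 fold change of −0.0037 and a 95% interval of −0.086 to 0.078. In S134A-GR TGFβ1 cells it read 273429, 255120 and 264624, a log2 fold change of 0.059 with an interval of −0.023 to 0.14. Neither passed the limma test, and the paralogs' ratio is tested below.

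The cochaperones FKBP4 and STIP1 rose in both lines. FKBP4 read 16467, 16089 and 16166 normalized counts in wt-GR TGFβ1 cells and 20854, 21078 and 22007 in S134A-GR TGFβ1 cells, with log2 fold changes of 0.23 ± 0.032 and 0.13 ± 0.032 (limma adjusted p = 0.0001 and 0.0096). STIP1 read 39314, 37931 and 37099 in wt-GR TGFβ1 cells and 29369, 28249 and 28797 in S134A-GR TGFβ1 cells, with log2 fold changes of 0.13 ± 0.035 and 0.16 ± 0.035 (limma adjusted p = 0.016 and 0.0055). Both genes were above all vehicle libraries of their own line. PTGES3 read 28642, 32417 and 31201 in wt-GR TGFβ1 cells, all above the wt-GR Veh libraries. Its log2 fold change of 0.13 ± 0.052 did not pass the test (limma adjusted p = 0.09). In S134A-GR cells it read 30122, 27216 and 26506, also all above the vehicle libraries, and rose by 0.25 ± 0.052 on the log2 scale (limma adjusted p = 0.0038).

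Values of NR3C1 after TGFβ1 overlapped those under vehicle in each line. Its log2 fold change was −0.12 (95% interval −0.27 to 0.019) in wt-GR cells and −0.022 (−0.17 to 0.12) in S134A-GR cells, with limma adjusted p of 0.227 and 0.877. NCOA2 read 2017, 1979 and 1999 in wt-GR TGFβ1 cells, below each vehicle library, and its log2 fold change of −0.25 ± 0.074 (limma adjusted p = 0.03) was lost under 6 of 23 settings. These are 4 long transcripts, and wt-GR Veh replicate 3 weighs on all of them. Without that library 8 of 10 genes were called in wt-GR cells in place of 5, since NR3C1 (−0.21, adjusted p = 0.014), NCOA1 (−0.36, adjusted p = 0.0029) and NCOR1 (−0.22, adjusted p = 0.011) then passed as lower. Without wt-GR Veh replicate 2, 3 of 10 were called. With the length trend of each library removed, the log2 fold change of NR3C1 in wt-GR cells was −0.086 (adjusted p = 0.166), and NCOA2 was lower by −0.19 (adjusted p = 0.017).

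Whether the lines respond differently was tested as the difference of the log2 responses. By limma 0 of 10 genes passed, where 0.414% of all tested genes did, and 1 of 10 had an unadjusted p under 0.05. edgeR's quasi-likelihood test and DESeq2 also called 0. That gene was FKBP4, whose response was smaller in S134A-GR cells by −0.10 on the log2 scale (95% interval −0.20 to −0.0057, limma adjusted p = 0.512). For HSPA8 the difference was −0.0078 (−0.13 to 0.12) and for NR3C1 0.10 (−0.10 to 0.30), so that differences of the size of HSPA8's own response lay outside its interval. For NCOA1 the interval ran from −0.11 to 0.49, which is wide against any TGFβ1 response of the 10 genes.

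Ratios taken within a library do not depend on its size factor, and 4 of them were compared by a 2-sided exact permutation test with labels permuted within treatment or within line (400 permutations, smallest possible p = 0.005, 8 tests adjusted by Benjamini-Hochberg). The HSP90AA1 to HSP90AB1 ratio was 1.02 ± 0.019 (SD, n = 3) in wt-GR Veh cells, 0.876 ± 0.0095 in wt-GR TGFβ1 cells, 1.122 ± 0.025 in S134A-GR Veh cells and 1.03 ± 0.013 in S134A-GR TGFβ1 cells. TGFβ1 lowered this ratio in both lines, from 1.00 to 1.03 down to 0.865 to 0.882 in wt-GR cells and from 1.09 to 1.14 down to 1.01 to 1.04 in S134A-GR cells. The mean change with TGFβ1 was 0.887-fold and the mean difference of S134A-GR from wt-GR was 1.14-fold, each at the smallest p that the permutations can give (exact permutation p = 0.005, adjusted 0.0067). The 2 HSP90 genes thus did not keep a fixed proportion across these conditions.

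NR3C1 was compared with its main chaperone in the same way. Per 1000 normalized counts of HSP90AA1 plus HSP90AB1, wt-GR Veh cells held 25.2 ± 2.55 of NR3C1, wt-GR TGFβ1 cells 21.4 ± 0.641, S134A-GR Veh cells 18.4 ± 0.496 and S134A-GR TGFβ1 cells 16.7 ± 0.786. The ratio was 0.755-fold in S134A-GR relative to wt-GR cells and 0.878-fold with TGFβ1 relative to vehicle, both with an exact permutation p of 0.005 (adjusted 0.0067). By these counts the receptor transcript was scarcer relative to HSP90 transcripts in the mutant line and after TGFβ1, although NR3C1 alone did not pass for TGFβ1. The ratio sets an NR3C1 transcript of 6778 bases against HSP90 transcripts of 3228 and 2555 bases. A library's trend on transcript length can therefore enter it, and that trend was not removed from the ratios. In wt-GR Veh replicates 1, 2 and 3 this ratio was 27.3, 26.0 and 22.4 per 1000. NCOA1 to NCOA2 was 1.20 ± 0.087 and 1.217 ± 0.055 in wt-GR cells (Veh and TGFβ1) against 0.922 ± 0.098 and 0.964 ± 0.051 in S134A-GR cells. All S134A-GR libraries (0.809 to 1.00) lay below all wt-GR libraries (1.11 to 1.28), a 0.78-fold difference (exact permutation p = 0.005, adjusted 0.0067). With TGFβ1 it did not pass (1.03-fold, exact permutation p = 0.48). The NCOA1 to NCOR1 ratio was 0.828-fold in S134A-GR relative to wt-GR cells (exact permutation p = 0.005, adjusted 0.0067), and 0.947-fold with TGFβ1 (exact permutation p = 0.05, adjusted 0.057).

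**Figure D3:**
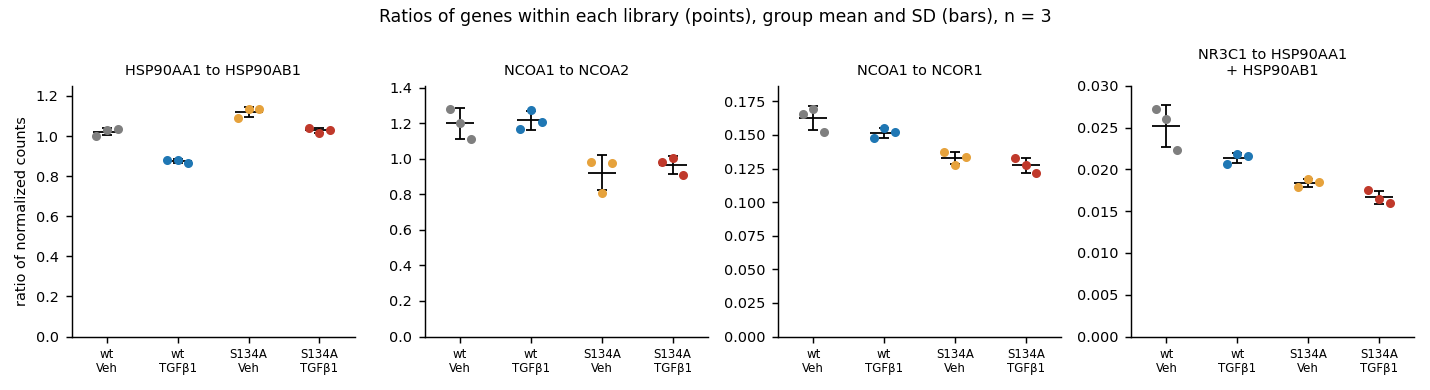
Ratios of normalized counts of 2 genes (or of NR3C1 to the sum of the HSP90 genes) within each library, on axes from 0. Points are libraries and bars the group mean and SD (n = 3); HSP90AA1 to HSP90AB1 falls with TGFβ1 in both lines, and the other 3 ratios are lower in S134A-GR than in wt-GR cells.

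The genes were next set beside their neighbours on the chromosome. HSPA8 and STIP1 both lie on chromosome 11, HSPA8 at 123057489 to 123063230 on the minus strand and STIP1 at 64185272 to 64204543 on the plus strand (hg38). Of the 20 tested genes next to HSPA8 (10 on either side, with a mean of at least 100 normalized counts, over 4.67 megabases), 19 had a negative log2 fold change in S134A-GR under vehicle and 1 a positive one, with a median of −0.72. Over 11790 such windows along the genome the median of the windows was −0.020 and the 5th to 95th percentiles ran from −0.46 to 0.31, and 0.458% of windows were as low as that around HSPA8. HSPA8 itself (−0.40) stood above the median of its neighbours. Around STIP1, 19 of 20 neighbours over 0.716 megabases were negative, with a median of −0.38 beside −0.43 for STIP1 (7.68% of windows were as low). Under TGFβ1, which used other libraries, the medians were −0.66 around HSPA8 and −0.45 around STIP1. Of the other pathway genes described below, 4 had a neighbour median under the 5th percentile of windows. CHORDC1 (−0.65 beside a median of −0.77) and SERPINH1 (−0.53 beside −0.60) on chromosome 11 and SUGT1 on chromosome 13 (−0.63 beside −0.58) were near their neighbours in value. HSPH1 on chromosome 13 (−0.10 beside −0.57) was not, nor was DNAJB4 on chromosome 1 (−0.018 beside −0.45), whose neighbours lay just inside that percentile. On the higher side, HSF1 on chromosome 8 (0.39 beside 0.62) and STUB1 on chromosome 16 (0.398 beside 0.395) had neighbour medians above the 95th percentile.

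The other 8 genes had less extreme surroundings. FKBP4 on chromosome 12 (0.49) had neighbours with a median of −0.0014, 10 of 20 of them negative. NR3C1 (−0.41) had neighbours with a median of −0.10, NCOA1 (−0.53) with −0.20 and NCOR1 (−0.24) with −0.061. PTGES3 (−0.25) had neighbours of the opposite sign, with a median of 0.15. HSP90AA1 (0.11) had neighbours with a median of 0.18, HSP90AB1 (−0.030) with −0.18 and NCOA2 (−0.15) with −0.20. DNA copy number was not measured, and the part of position in these differences was not tested.

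**Figure D4:**
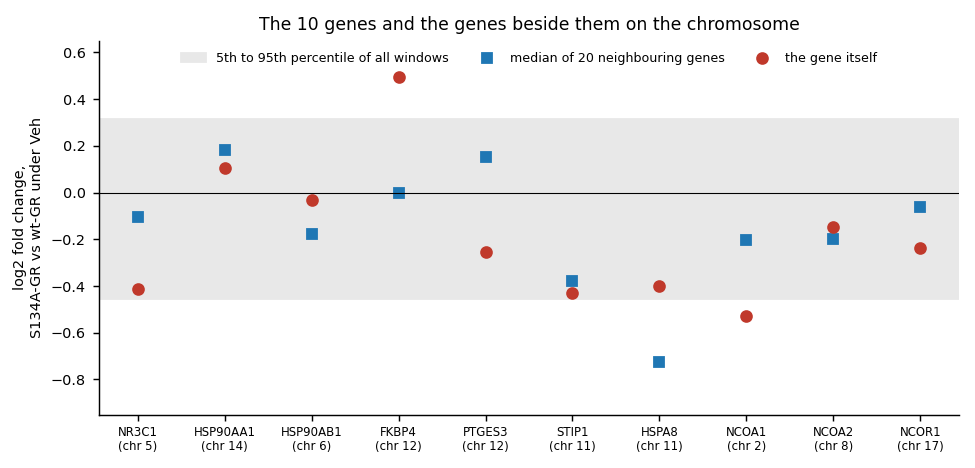
Contrast of the lines under vehicle (log2 fold change, S134A-GR relative to wt-GR) for each of the 10 genes (circles) and the median of its 20 neighbouring genes (squares), with the 5th to 95th percentile of all windows in grey. The neighbours of HSPA8 sit below the grey band at −0.72, while the neighbours of FKBP4 sit near 0.

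Promoters of the chaperone genes are shown because HSPA8 and HSP90AB1 rose together with TGFβ1 and HSP90AA1 did not pass the test. FKBP4 and STIP1 also rose in both lines. Whether promoter elements take part in these responses was not tested. RefSeq sequences (GRCh38.p14) of the 250 bases before a start were at hand for 21 promoters of 8 of the 10 genes, and FKBP4 and NCOA2 were not searched. The heat shock element, which binds the heat shock factors, was taken as the units GAA, TTC and GAA with NN between them. It was searched on both strands and was found in 3 of the 21 promoters, against 0.441% of 35116 promoters in all. These were 1 promoter each of HSPA8, HSP90AB1 and HSP90AA1, while the other promoters searched, including those of STIP1 and the HSP90 genes, had none. All 3 windows lie within the annotated span of their gene, so each precedes 1 start among others. Of the 250 bases, 199 (HSPA8), 77 (HSP90AB1) and 0 (HSP90AA1) are in annotated exons of the gene. The 5 matches, with capitals for the element and 8 bases on either side, are on the strand of the gene at chr11:123062346-123062374, chr11:123062171-123062199, chr6:44247770-44247798, chr6:44247823-44247851 and chr14:102087112-102087140.
HSPA8, 230 to 218 bases before the start: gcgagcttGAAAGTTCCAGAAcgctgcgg
HSPA8, 55 to 43 bases before the start: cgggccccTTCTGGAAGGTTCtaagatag
HSP90AB1, 165 to 153 bases before the start: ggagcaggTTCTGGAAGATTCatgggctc
HSP90AB1, 112 to 100 bases before the start: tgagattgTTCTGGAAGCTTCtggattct
HSP90AA1, 88 to 76 bases before the start: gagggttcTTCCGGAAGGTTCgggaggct
The glucocorticoid response element (GNACA and TGTNC with NNN between them) and the SMAD element GTCTAGAC, which read the same on both strands, were found in 0 of the 21 promoters, against 0.327% and 0.182% of all.

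Several of these transcripts have near copies in the genome. Of the 75-base stretches of the canonical transcript, the length of a read, 11.8% of PTGES3, 9.13% of HSP90AA1, 7.26% of HSP90AB1 and 6.76% of HSPA8 also occur elsewhere in hg38, against 0% for NR3C1, NCOA1 and NCOA2 and under 1% for the other 3 genes. How reads with several matches were counted is not given in the sources used here, so the levels of these 4 chaperone genes are less certain than those of the others. FKBP4 shares 285 and 233 exon bases with 2 noncoding genes on the opposite strand.

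The wider pathway was described with 9 lists holding 77 other tested genes. Counts given for a list include those of the 10 genes that belong to it, while counts of the 77 do not. The counts below stand beside the shares of all tested genes called, which were 25.0% higher and 26.5% lower between the lines under vehicle, 11.2% higher and 9.82% lower with TGFβ1 in wt-GR cells, and 10.0% higher and 8.69% lower with TGFβ1 in S134A-GR cells. Under vehicle 17 of the 77 were higher in S134A-GR cells and 29 lower (median log2 fold change −0.056, against 0.019 for all tested genes). With TGFβ1 22 rose and 7 fell in wt-GR cells (median 0.065 against −0.0046), and 16 rose and 7 fell in S134A-GR cells (median 0.043 against −0.0097). By limma 0 of the 77 passed the test of a difference in response and 10 had an unadjusted p under 0.05. edgeR called 0 as well, and DESeq2 called 1, the collagen chaperone SERPINH1, whose response was smaller in S134A-GR cells (log2 difference −0.17, DESeq2 adjusted p = 0.044, limma adjusted p = 0.195).

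Of the 11 HSP90 and HSP70 chaperones under vehicle, 5 were higher in S134A-GR cells and 4 lower. With TGFβ1, 6 rose and 0 fell in wt-GR cells. Without HSP90AA1, HSP90AB1 and HSPA8, 4 of 8 were higher and 3 lower, and 4 rose and 0 fell. HSP90B1, the HSP90 of the endoplasmic reticulum, averaged 145171 ± 2452 (SD, n = 3) in wt-GR Veh and 128543 ± 4337 in S134A-GR Veh cells and was lower (log2 fold change −0.18 ± 0.040, limma adjusted p = 0.0021). TRAP1, the mitochondrial form, was higher (0.13, adjusted p = 0.0033) and rose with TGFβ1 in both lines (0.12 and 0.10). HSPA9, the mitochondrial HSP70, rose by 0.24 in each line (limma adjusted p = 5.52e-05 in wt-GR). HSPA4, a nucleotide exchange factor of HSP70, was lower in S134A-GR cells (−0.23, adjusted p = 0.00015). HSPA1A (1.47) and HSPA1B (0.72), the inducible HSP70 genes, were called higher under vehicle but are near-identical copies whose reads the counting could split.

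Among the 10 HSP40 and nucleotide exchange cochaperones under vehicle, 2 were higher in S134A-GR cells and 3 lower, and 3 rose and 1 fell with TGFβ1 in wt-GR cells. DNAJA1, an HSP40 that delivers clients to HSP70, was higher in S134A-GR cells (0.27, limma adjusted p = 6.7e-06), where HSPA8 was lower. This holds for that pair of genes and not for the families. Other HSP40 genes had log2 fold changes of 0.020 (DNAJA2), 0.042 (DNAJB1), −0.018 (DNAJB4) and 0.0012 (DNAJC7). HSP70 genes lay on both sides of 0, as with HSPA9 (0.12) and HSPA5 (−0.12). BAG3, a nucleotide exchange factor of HSP70, fell with TGFβ1 in wt-GR (−0.27, adjusted p = 4.7e-05) and in S134A-GR cells (−0.14, adjusted p = 0.0096). Of the 11 HSP90 cochaperones under vehicle, S134A-GR cells had 2 higher and 5 lower. With TGFβ1, 4 rose in wt-GR and 6 in S134A-GR cells, while 0 fell. Without STIP1 and PTGES3, 2 of 9 were higher and 3 lower, and 3 rose in wt-GR and 4 in S134A-GR cells. AHSA1, which stimulates the HSP90 ATPase, was higher in S134A-GR cells (0.36) and rose with TGFβ1 in both lines (0.19 and 0.15), the pattern of FKBP4. SUGT1 was lower in S134A-GR cells (−0.63, limma adjusted p = 6.89e-08).

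Of the 7 immunophilin and TPR partners under vehicle, S134A-GR cells had 2 higher and 1 lower. Without FKBP4, 1 of 6 was higher and 1 lower. PPID (cyclophilin 40), which like FKBP4 binds HSP90 through TPR repeats, was higher (0.28, limma adjusted p = 1.75e-05), and SGTA rose with TGFβ1 in wt-GR cells (0.096, adjusted p = 0.029). The 12 heat shock factors and common targets were split in S134A-GR cells under vehicle, with 4 higher and 5 lower. SERPINH1, the collagen chaperone, averaged 25423 ± 820 in wt-GR Veh and 17552 ± 254 in S134A-GR Veh cells (−0.53, adjusted p = 1.1e-08). With TGFβ1, 5 of the 12 rose and 2 fell in wt-GR cells. Of 9 genes of nuclear transport, 2 were higher and 3 lower under vehicle, among them KPNA1, an importin alpha (−0.45, adjusted p = 2.53e-07), and 2 rose with TGFβ1 in wt-GR cells, among them KPNA2 (0.14, adjusted p = 0.016).

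Of 17 coactivators under vehicle, S134A-GR cells had 2 higher and 5 lower. Without NCOA1 and NCOA2, 2 of 15 were higher and 4 lower. NCOA3, the third p160 protein, did not pass in any comparison (5334 to 7023 normalized counts in wt-GR Veh and 5977 to 6327 in S134A-GR Veh cells). KAT2B, an acetyltransferase that p160 proteins recruit, averaged 4509 ± 327 in wt-GR Veh and 2712 ± 37.4 in wt-GR TGFβ1 cells, a fall of −0.73 on the log2 scale (limma adjusted p = 3.64e-07), and fell by 0.50 in S134A-GR cells. It was also lower in S134A-GR than in wt-GR cells under vehicle (−0.42). With TGFβ1 1 coactivator rose and 4 fell in wt-GR cells (1 and 3 without NCOA1 and NCOA2).

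For the corepressor list, under vehicle 8 of its 10 genes were lower in S134A-GR cells and 0 higher, with a median log2 fold change of −0.26 against 0.019 for all tested genes, of which 26.5% were lower and 25.0% higher. Under TGFβ1 7 were lower and 0 higher, where 25.7% and 23.1% of all tested genes were. Without NCOR1, 7 of the 9 other genes of the list were lower in each condition. HDAC2 (−0.39, limma adjusted p = 1.08e-06) and TBL1X (−0.33) were among them. With TGFβ1, NCOR1 did not pass in either line, and TBL1X, a subunit of the NCOR complexes, fell (−0.39, adjusted p = 1.86e-05 in wt-GR), while its paralog TBL1XR1 rose (0.28 in wt-GR and 0.39 in S134A-GR cells). In the list of prereceptor enzymes and the related receptor, 2 of 4 were higher and 1 lower under vehicle. NR3C2, the mineralocorticoid receptor gene and nearest paralog of NR3C1, averaged 320 ± 7.59 in wt-GR Veh, 181 ± 12.6 in wt-GR TGFβ1, 473 ± 24.8 in S134A-GR Veh and 318 ± 13.1 in S134A-GR TGFβ1 cells. It was higher in S134A-GR cells (0.56, adjusted p = 0.00014), where NR3C1 was lower, and fell with TGFβ1 in wt-GR (−0.82) and S134A-GR cells (−0.57).

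**Figure D5:**
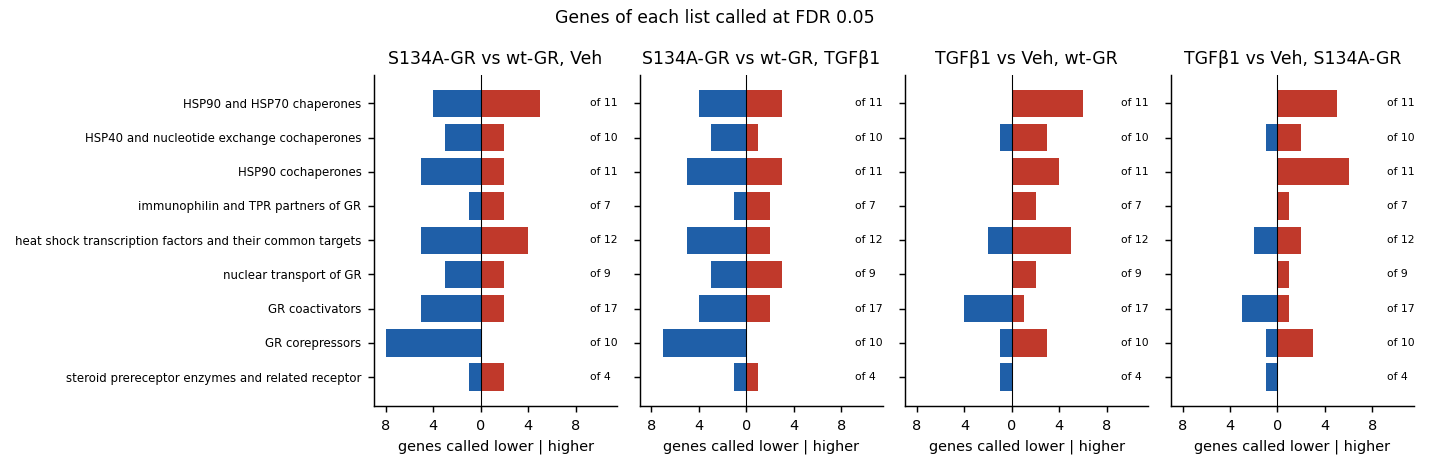
Number of genes called lower (blue, left) or higher (red, right) at an FDR of 0.05 in each of 9 lists, the 10 genes included where they belong, with the number tested beside each bar. The corepressors have 8 (Veh) and 7 (TGFβ1) of 10 genes called lower in S134A-GR cells, where 26.5% and 25.7% of all tested genes were. With TGFβ1 the HSP90 and HSP70 chaperones (6 and 5 of 11 in wt-GR and S134A-GR cells) and HSP90 cochaperones (4 and 6 of 11) have calls as higher alone. The immunophilin partners (2 and 1 of 7) and nuclear transport genes (2 and 1 of 9) have too few calls to show a direction. Of all tested genes 11.2% and 10.0% were higher and 9.82% and 8.69% lower.

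Among 9113 other genes with a mean of at least 1000 normalized counts, those most like NR3C1 over the 12 libraries, by Pearson's r of log2 values, were PPIP5K2 (0.992), PDK3 (0.991), ENPP1 (0.99), SOS1 (0.988) and ZNF217 (0.988). The libraries form 4 groups and share the length trend, so these values describe the profile only, and by Spearman's rho 0 of the same 5 genes were in the top 5. Those most like HSP90AA1 were OTUD7B (0.945), DNAJA1 (0.944), MFHAS1 (0.938), PPID (0.932) and EPC1 (0.932), of which 2 were also in the top 5 by rho. DNAJA1 and PPID are themselves chaperone partners of GR from the lists above.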

How the data were processed

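RNA-seq was done on 12 libraries (TruSeq, 75-base paired-end), 3 in each of 4 groups taken from the sample labels. Values were deposited as a signal: counts already normalized by library. Per the study's methods and the submitters' processing notes, the authors used FastQC 0.11.7 for quality, Trimmomatic for trimming, HISAT2 for alignment (hg38) and featureCounts (Subread) for gene counts, and then divided each library by its DESeq2 1.22.2 size factor. The annotation, the strand setting and the versions of HISAT2 and featureCounts are not given in the sources used here. In each library 100% of values were whole multiples of 1 step within 0.01 reads, so reads were recovered (56362036 to 129832227 per library, factors 0.614 to 1.40).

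A sum of at least 10 reads was required of a gene, which left 18579 genes, fitted as log2(value + 1) with limma 3.58.1 in R 4.3.3 (4 group means, trend), with Benjamini-Hochberg adjustment over all genes and calls at an FDR under 0.05. Fold changes are on that scale, which understates changes of low genes. The count tests edgeR 4.0.16 and DESeq2 1.42.0 were run on the recovered reads as alternatives, since the deposited values are not counts. Other alternatives were no filter beyond 1 read, at least 10 normalized counts in 3 libraries, pseudocounts of 0.5 and 16, TMM scaling, a replicate block, only the groups compared, and each library left out. Removal of each library's trend on transcript length was chosen after seeing the data. Limma was tested on simulated data. Ratios used exact permutation tests in Python 3.11.15 with SciPy 1.17.1. Symbols were matched to GENCODE 44 (17687 by symbol and 1106 through RefSeq synonyms, 94.4%) for lengths and positions. Intervals are 95% and floors of 3 reads cover counting error only.

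The 10 genes and the lists were chosen with earlier results of these data known. Other genes were named by a rule. These were HSP90B1, TRAP1, NCOA3 and FKBP5, from each list the gene of mean at least 100 normalized counts with the lowest adjusted p between lines under vehicle, that with the lowest for TGFβ1 in wt-GR cells, and the 5 genes most like NR3C1 and HSP90AA1. HSPA1A, HSPA1B, HSPA5, CHORDC1, HSPH1, DNAJA2, DNAJB1, DNAJB4, DNAJC7, HSF1, STUB1 and TBL1XR1 were named outside this rule, after their values were seen. Markers PGR and CD3E were not analysed here, and some items that the rule or lists hold are not reported here.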

Additional observations from a re-analysis of the deposited data

How the results depend on the processing

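Of 25 called differences of the 10 genes, 19 kept their call under all 23 alternatives (a setting, scaling, count test or library left out) and 6 lost it under some. Those 6 were HSP90AA1 and NCOR1 between the lines under vehicle, PTGES3 between the lines under TGFβ1, STIP1 and NCOA2 with TGFβ1 in wt-GR cells and FKBP4 with TGFβ1 in S134A-GR cells. With the replicate block the contrast of lines under vehicle had 7 calls instead of 8 (HSP90AA1 lost its call), and no other call of the 10 genes changed. The replicate numbers did not pair samples (mean r of 0.00089 over 18 same-number pairs, −0.15 to 0.15). With only the groups compared, the TGFβ1 response in wt-GR cells had 3 calls instead of 5. With 1 library left out, the count was 6 to 9 between the lines under vehicle, 6 to 7 under TGFβ1, 3 to 8 for TGFβ1 in wt-GR cells, 4 to 5 in S134A-GR cells and 0 for the difference in response. The NCOA1 to NCOR1 change with TGFβ1 was −0.10 to −0.061 with a library left out and passed in 3 of these cases.

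For TGFβ1 in wt-GR cells, only the groups compared gave 2 calls in the HSP40 list, 1 in the immunophilin list and 1 in the nuclear transport list, which had 5 calls with the length trend removed. With a library left out these lists ranged from 2 to 4, 1 to 2 and 0 to 3, the HSP90 cochaperones from 2 to 5, the heat shock targets from 4 to 7 and the coactivators from 4 to 9, and the HSP40 list under vehicle from 3 to 5.

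Sign changes were seen in 20 values of 6 differences near 0 that were not called. With a library left out, NCOA2 between the lines under TGFβ1 ranged from −0.058 to 0.056, HSP90AA1 with TGFβ1 in wt-GR cells from −0.025 to 0.026, NR3C1 with TGFβ1 in S134A-GR cells from −0.080 to 0.0067, NCOA1 from −0.10 to 0.014, NCOR1 from −0.013 to 0.069, and the difference in response of HSPA8 from −0.052 to 0.021. HSP90AA1 with TGFβ1 in wt-GR cells was 0.0025 under TMM scaling and 0.0031 in edgeR with TMM. With the length trend removed NCOR1 with TGFβ1 in S134A-GR cells was −0.019 and the difference in response of HSPA8 0.022. The causes were not tested.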
